A study of Mus musculus with 24 samples.

Results

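The genes described here are 8 transcription factors that steer myeloid fate: Gfi1, Gfi1b, Zeb2, Irf8, Klf4, Egr1, Id1 and Id2. They were taken by name, and they are 8 of the 21631 protein-coding genes on mouse chromosomes 1 to 19 and X. For each gene, the regions called by chromatin immunoprecipitation sequencing (ChIP-seq) in its annotated mm10 span plus 2 kb either side were listed, and their bases inside this window were summed. This sum is called the covered length, in bp. It measures how far called regions extend, not how much protein is bound. The cells were cultured mouse leukaemia lines that carry a fusion of the nuclear pore gene NUP98, grown with interleukin-3, interleukin-6 and stem cell factor in every condition. VTP50469, a small molecule that blocks the contact between menin and MLL1, was set against the solvent DMSO in 7 pairs of libraries. MLL1 was mapped in NUP98-HOXA9 at 2 µM for 72 h, in NUP98-HOXD13 and NUP98-JARID1A at 2 µM for 96 h, and in NUP98-NSD1 at 200 nM for 96 h. At 2 µM for 96 h, NUP98-HOXA9 and NUP98-HOXD13 also gave Menin lists, and NUP98-HOXA9 gave lists of H3K4me3, the histone H3 tail with lysine 4 trimethylated. Each condition had 1 library, so no value has a replicate error, no test was possible, and how clones or cultures of a line vary is not known from these data.

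Myeloid progenitors choose between granulocyte, monocyte, dendritic and erythroid or megakaryocyte fates through transcription factors that oppose each other. Gfi1 and Gfi1b are zinc finger repressors that recruit the CoREST and LSD1 complex, Irf8, Klf4 and Egr1 are known for promoting monocyte and macrophage fates, and Zeb2 is a repressor that binds E-boxes. Id1 and Id2 lack a DNA-binding domain and hold back E proteins such as Tcf12 and Tcf4 by pairing with them. MLL1 is a histone methyltransferase of H3K4 that is found at gene starts rich in CG dinucleotides, and menin is the adaptor that joins it to chromatin at some genes.

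The bases just before the annotated starts are printed because MLL1 regions in DMSO lay over such a start at 5 of these genes and away from it at Gfi1b. The 5 were so in NUP98-HOXA9 and NUP98-HOXD13, against 4 in NUP98-JARID1A (not Irf8) and 2 in NUP98-NSD1 (Gfi1 and Zeb2). Each sequence is the 250 bases upstream of a start in RefSeq (GRCm38.p6), read 5′ to 3′ on the gene's strand, with every CG dinucleotide in capitals. The outer start of Gfi1, inside its wide MLL1 domain, follows chr5:107725806-107726055 on the minus strand, and the innermost of the 4 annotated starts of Zeb2 follows chr2:45110278-45110527 on the minus strand. The starts of Irf8 (chr8:120736108-120736357, plus strand), Klf4 (chr4:55532476-55532725, minus strand) and Id2 (chr12:25096093-25096342, minus strand) lay in narrow regions. The start of Gfi1b (chr2:28621983-28622232, minus strand) lay in no region of any list.
Gfi1: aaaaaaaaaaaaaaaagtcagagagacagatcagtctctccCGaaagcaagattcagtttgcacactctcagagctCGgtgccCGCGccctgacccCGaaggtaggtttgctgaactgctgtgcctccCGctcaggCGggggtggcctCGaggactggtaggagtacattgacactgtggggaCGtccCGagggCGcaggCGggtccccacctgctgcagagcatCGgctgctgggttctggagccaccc
Zeb2: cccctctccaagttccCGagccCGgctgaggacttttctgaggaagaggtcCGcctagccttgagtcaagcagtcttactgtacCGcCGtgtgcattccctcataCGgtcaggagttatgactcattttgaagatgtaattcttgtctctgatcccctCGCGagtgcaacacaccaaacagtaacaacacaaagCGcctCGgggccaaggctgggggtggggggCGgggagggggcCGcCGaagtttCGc
Irf8: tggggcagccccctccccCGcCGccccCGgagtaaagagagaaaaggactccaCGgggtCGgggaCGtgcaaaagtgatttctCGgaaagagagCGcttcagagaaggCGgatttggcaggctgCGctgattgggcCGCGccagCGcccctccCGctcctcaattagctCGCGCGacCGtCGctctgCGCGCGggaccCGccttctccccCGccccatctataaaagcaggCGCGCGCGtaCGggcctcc
Klf4: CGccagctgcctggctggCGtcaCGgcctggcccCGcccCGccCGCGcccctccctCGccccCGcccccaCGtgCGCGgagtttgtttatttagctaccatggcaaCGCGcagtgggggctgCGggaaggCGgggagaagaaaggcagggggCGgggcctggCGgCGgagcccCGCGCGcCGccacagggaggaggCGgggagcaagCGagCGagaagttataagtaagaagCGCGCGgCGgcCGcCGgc
Id2: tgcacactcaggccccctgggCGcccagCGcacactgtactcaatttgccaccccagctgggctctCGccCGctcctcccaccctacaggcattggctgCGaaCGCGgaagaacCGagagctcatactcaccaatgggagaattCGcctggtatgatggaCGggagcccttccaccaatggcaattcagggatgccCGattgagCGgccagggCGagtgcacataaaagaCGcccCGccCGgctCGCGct
Gfi1b: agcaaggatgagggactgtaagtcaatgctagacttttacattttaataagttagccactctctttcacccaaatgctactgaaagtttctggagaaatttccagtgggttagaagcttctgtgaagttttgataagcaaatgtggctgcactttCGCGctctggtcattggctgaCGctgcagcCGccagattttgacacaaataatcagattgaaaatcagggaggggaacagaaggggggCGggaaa
Klf4 held 32 CG, more than 95.4% of the 32585 promoters in the table, and Irf8 held 29, more than 93.2%. Id2 held 18, Zeb2 14 and Gfi1 13, and Gfi1b held 5, which is below the median of 6 over all promoters. Starts not printed held fewer CG than the printed start of the same gene. The inner start of Gfi1 held 9, and the other starts of Zeb2 held 9, 6 and 6. A second annotated start of Irf8 held 8 and lay in no region of any list. At least 1 CG stood in 92.2% of all promoters of this length, with CG the same on both strands. Over all genes, starts inside an MLL1 region of NUP98-HOXA9 in DMSO had a median of 18 CG, and starts outside had 3. Promoters of 6 of the 8 genes were matched in the table, and Egr1 and Id1 are described by their spans alone.

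The 14 lists held 403 to 24950 regions, and the weakest region of a list had a −log10 q between 2.00 and 2.07, so a gene without a region had enrichment below this limit or none. Read depth is unknown from such lists. The number of regions differed most with treatment for MLL1 in NUP98-JARID1A (24950 after VTP50469, 15765 in DMSO), in NUP98-NSD1 (1036 after VTP50469, 7113 in DMSO) and for Menin in NUP98-HOXA9 (403 after VTP50469, 9050 in DMSO), and values with each pair of lists cut to equal length are given below. In NUP98-HOXA9, H3K4me3 covered 7 of 8 blood and myeloid identity genes after VTP50469 and 6 of 8 in DMSO, without Itgam in either. Of 8 markers of other cell types, the B-cell gene Cd79a had a region in both conditions, and the rest had none.

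MLL1 regions were present at nearly all of these factors in 3 of the 4 lines. In NUP98-HOXA9 all 8 genes had a region after VTP50469 and in DMSO, against 54.4% of all genes after VTP50469 and 53.0% in DMSO. In NUP98-HOXD13 it was again all 8 genes in both conditions, against 48.5% of all genes after VTP50469 and 53.5% in DMSO. In NUP98-JARID1A it was 8 genes after VTP50469 and 7 in DMSO (57.5% of all genes after VTP50469 and 48.4% in DMSO), with Irf8 the gene without a region in DMSO. In NUP98-NSD1, 0 of the 8 had a region after VTP50469 and 4 in DMSO (4.56% of all genes after VTP50469 and 26.1% in DMSO), these 4 being Gfi1, Zeb2, Egr1 and Id1.

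After VTP50469 the MLL1 length at the repressor genes Gfi1 and Zeb2 was much shorter in NUP98-HOXA9 and NUP98-HOXD13. All 8 genes kept at least 1 region in these lines. Klf4, Id2, Irf8 and Egr1 had 51.8%, 53.4%, 54.6% and 62.7% of their DMSO length in NUP98-HOXD13. In DMSO of these lines, Gfi1 carried 1 wide domain and Zeb2 a set of separate regions. A gene is called shorter here when its covered length after VTP50469 was at most 50% of that in DMSO, and longer when it was at least 200% or new. In NUP98-HOXA9, 2 of the 8 genes were shorter, Gfi1 and Zeb2, against 12.8% of all genes with a region in DMSO, and none was longer, against 6.98% of all genes with a region after VTP50469. In NUP98-HOXD13 the same 2 genes were shorter, against 30.4% of all genes, and none was longer, against 1.69%. Being shorter was common among genes with at least 4 kb covered in DMSO, which Gfi1 and Zeb2 both had in NUP98-HOXA9: 59.7% of such genes were shorter in NUP98-HOXA9 and 82.0% in NUP98-HOXD13, where Gfi1 and Zeb2 stood just under that length with 3771 and 3757 bp. The median ratio over the 8 genes was 0.68 in NUP98-HOXA9 and 0.54 in NUP98-HOXD13, and over all genes it was 0.90 in NUP98-HOXA9 and 0.67 in NUP98-HOXD13. Counted without the 2 kb flanks, Zeb2, Id1 and Id2 were shorter in NUP98-HOXA9 (19.1% of all genes), Klf4 was longer (8.69% of all genes), and Gfi1, with 1594 bp after VTP50469 and 2870 bp in DMSO, was no longer past the limit. In NUP98-HOXD13, Klf4, Egr1 and Id2 were then shorter in addition to Gfi1 and Zeb2, against 38.6% of all genes.

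In NUP98-JARID1A the wide domains of Gfi1 and Zeb2 had close to their DMSO length, and the narrow regions at Irf8, Klf4 and Id2 were longer. None of the 7 genes covered in DMSO was shorter, against 2.51% of all genes and 11.2% of those with at least 4 kb in DMSO (Gfi1 and Zeb2 among them), and 3 of 8 were longer, against 32.7%. The share of longer genes in the full lists was thus close to that of all genes in this pair. In NUP98-NSD1 all 4 genes covered in DMSO had no region after VTP50469 and so were shorter, as were 94.1% of all genes and 98.1% of those with at least 4 kb in DMSO (Gfi1 among them), and none was longer, against 15.7%. The difference between lines was not tested, since each value comes from 1 library, and line cannot be told apart from dose in NUP98-NSD1 or from time in NUP98-HOXA9.

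**Figure D1:**
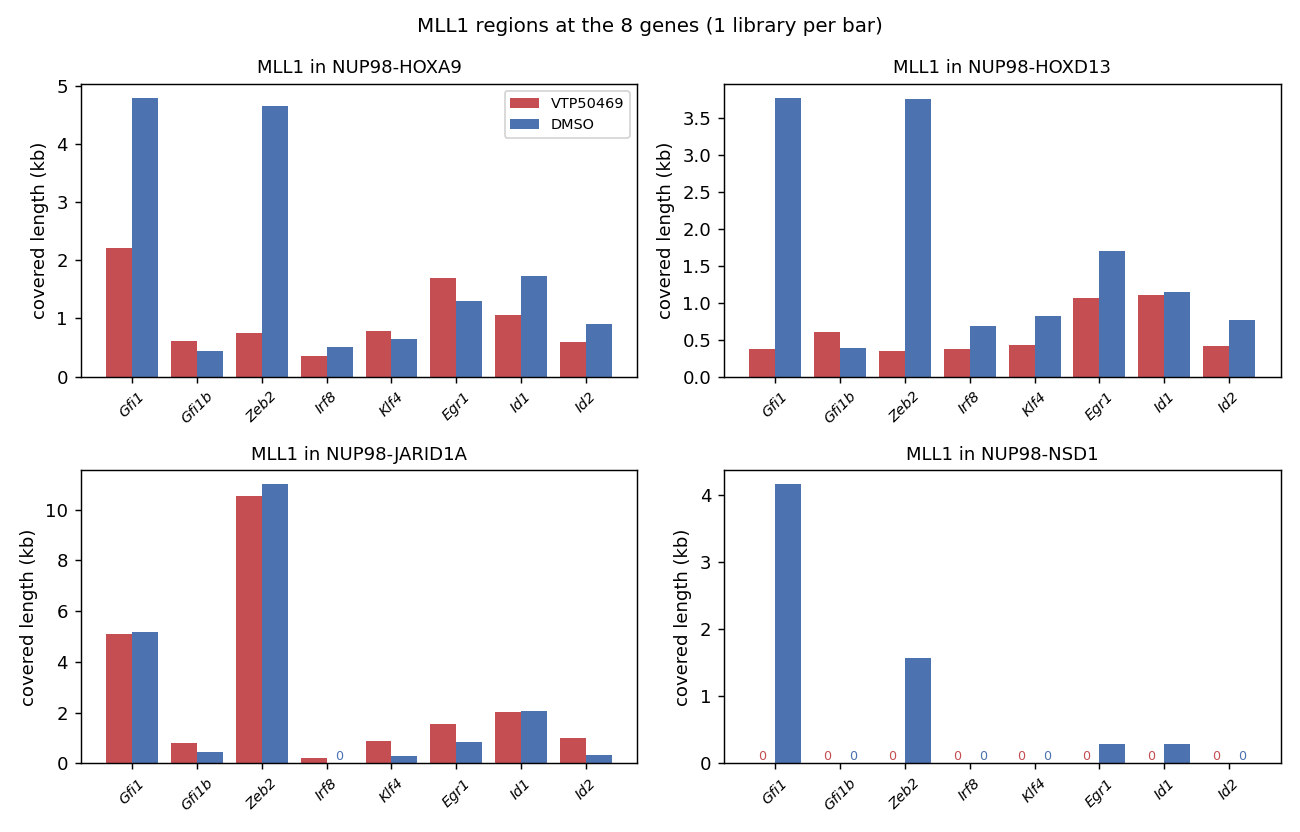
Covered length in kb of MLL1 regions at each of the 8 genes in 4 leukaemia lines, with VTP50469 left of DMSO and 1 library per bar. Gfi1 and Zeb2 have the tallest DMSO bars in NUP98-HOXA9 (4796 and 4649 bp), their VTP50469 bars there are 2218 and 748 bp, and in NUP98-JARID1A both bars of each gene are nearly equal.

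Gfi1 (gene 14581, chr5:107716655-107725805, minus strand) represses monocyte genes and is needed for neutrophil formation. In NUP98-HOXA9 it had 2218 bp in 2 MLL1 regions after VTP50469, against 4796 bp in 1 region in DMSO, which is 46.3% of the DMSO length. The DMSO region spanned both annotated starts, and after treatment a region of 926 bp at the outer start and one of 1292 bp at the inner start were left with a gap between them. In NUP98-HOXD13 it had 379 bp after VTP50469, just upstream of the outer start, against 3771 bp in DMSO. In NUP98-NSD1 it had no region after VTP50469, against 1 region of 4160 bp in DMSO that was wider than 99.7% of that list. In NUP98-JARID1A it had 5091 bp after VTP50469 and 5183 bp in DMSO, and its domain over both starts was 4476 bp after VTP50469 and 4885 bp in DMSO. So the DMSO domains of the 4 lines were alike in place and size, and their lengths after treatment ranged from none to nearly the whole.

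**Figure D2:**
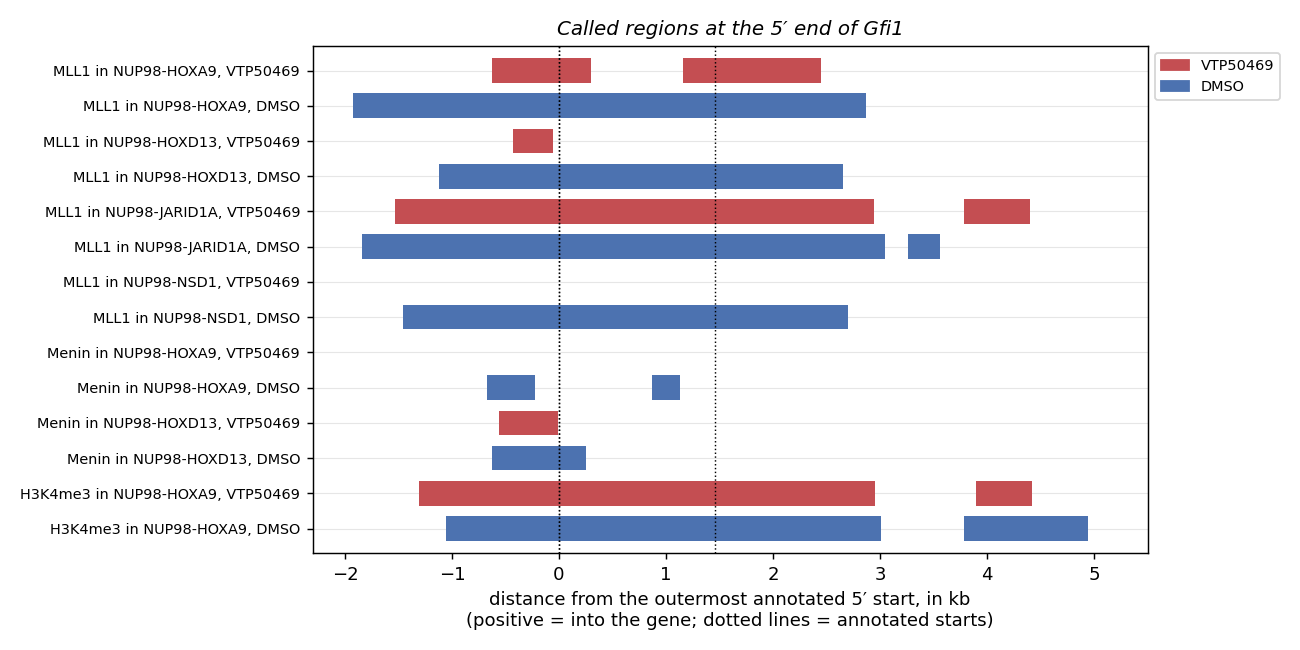
Called regions at the 5′ end of Gfi1 in all 14 lists, by distance in kb from the outermost annotated start, with VTP50469 above DMSO in each pair. MLL1 domains of 3771 to 4885 bp cover both starts in DMSO of all 4 lines, and after VTP50469 a domain of such length, 4476 bp, is present in NUP98-JARID1A.

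Zeb2 (gene 24136, chr2:44983512-45117442, minus strand) is known for its role in dendritic cell and monocyte development, and it is the longest gene of the group. In NUP98-HOXA9 it had 748 bp in 2 MLL1 regions after VTP50469, against 4649 bp in 9 regions in DMSO. In NUP98-HOXD13 it had 348 bp in 1 region after VTP50469, against 3757 bp in 6 regions in DMSO, or 9.26% of the DMSO length. None of the regions around its 4 annotated starts was called after treatment in these lines. What remained lay inside the gene, 60.5 kb from the nearest start in NUP98-HOXA9 and 60.6 kb in NUP98-HOXD13, with a further site at 24.3 kb in NUP98-HOXA9.

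In NUP98-JARID1A, Zeb2 carried a far wider domain, of 9173 bp after VTP50469 and 10375 bp in DMSO, which held all 4 starts in both conditions. It was wider than 99.9% of the regions in each list, and the fold enrichment of the authors, which is used here only to rank regions within a list, was above that of 96.0% of regions after VTP50469 and 99.6% in DMSO. Its total was 10525 bp after VTP50469 and 10995 bp in DMSO. In NUP98-NSD1 there was no region after VTP50469, against 1567 bp in DMSO in 2 regions at and just upstream of the innermost start. Zeb2 thus had the largest spread of MLL1 length between lines of the 8 genes, in DMSO as well as after treatment.

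**Figure D3:**
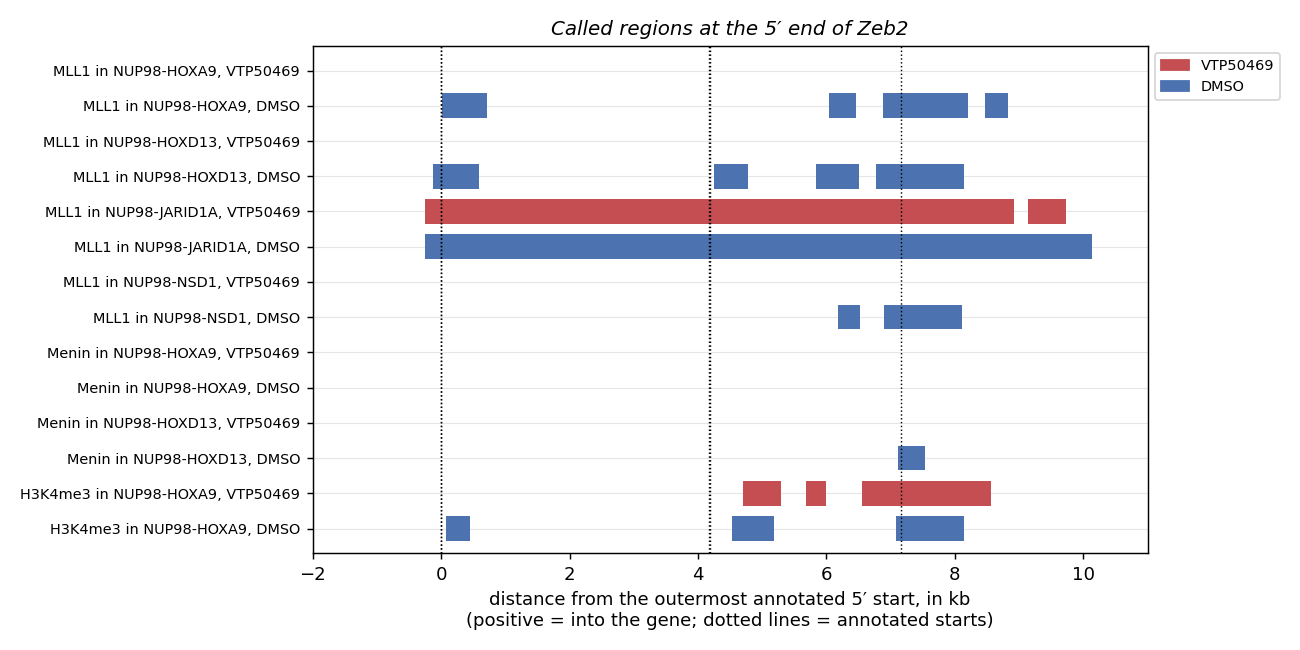
Called regions at the 5′ end of Zeb2 in all 14 lists, by distance in kb from the outermost of its 4 annotated starts (dotted), with VTP50469 above DMSO in each pair. MLL1 covers 9173 bp without a gap after VTP50469 and 10375 bp in DMSO in NUP98-JARID1A, whereas in NUP98-HOXA9 and NUP98-HOXD13 no MLL1 region in this stretch is called after VTP50469.

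Gfi1b (gene 14582, chr2:28609450-28621982, minus strand), the paralogue of Gfi1 that acts in erythroid and megakaryocyte cells, had a single narrow MLL1 region 2.63 to 2.77 kb inside the gene and none at its start. Its length was 615 bp after VTP50469 and 440 bp in DMSO in NUP98-HOXA9, 606 bp after VTP50469 and 390 bp in DMSO in NUP98-HOXD13, and 801 bp after VTP50469 and 440 bp in DMSO in NUP98-JARID1A. The region was longer after VTP50469 in each of these 3 lines, at 1.40, 1.55 and 1.82 times the DMSO length, all short of the limit for a call. Its rank by fold within the list was above 84.9% of regions after VTP50469 and 67.7% in DMSO in NUP98-HOXA9, 86.4% after VTP50469 and 54.7% in DMSO in NUP98-HOXD13, and 97.1% after VTP50469 and 72.4% in DMSO in NUP98-JARID1A. Gfi1b had no region in either list of NUP98-NSD1. Gfi1 and Gfi1b therefore differed in both the place and the width of their MLL1 regions.

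Irf8 (gene 15900, chr8:120736358-120756694, plus strand), which directs progenitors to monocyte and dendritic fates and away from neutrophils, had 1 narrow MLL1 region over its start. It was 359 bp after VTP50469 and 511 bp in DMSO in NUP98-HOXA9, and 372 bp after VTP50469 and 681 bp in DMSO in NUP98-HOXD13. In NUP98-JARID1A a region of 225 bp was called after VTP50469 and none in DMSO, and NUP98-NSD1 had none in either list. The new region was narrow, with 5.03% of its list narrower still.

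Klf4 (gene 16600, chr4:55527137-55532475, minus strand), a zinc finger factor of monocyte differentiation, also had 1 MLL1 region over its start. It was 788 bp after VTP50469 and 654 bp in DMSO in NUP98-HOXA9, 426 bp after VTP50469 and 822 bp in DMSO in NUP98-HOXD13, and 874 bp after VTP50469 and 303 bp in DMSO in NUP98-JARID1A. The ratio was thus 1.21, 0.52 and 2.88, on both sides of 1. NUP98-NSD1 had no region at Klf4.

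Egr1 (gene 13653, chr18:34861207-34864956), an immediate early gene that promotes macrophage fate, had in NUP98-HOXA9, NUP98-HOXD13 and NUP98-JARID1A an MLL1 region that reached from upstream of its annotated start coordinate into the gene, with a separate upstream region in some lists. It had 1691 bp after VTP50469 and 1303 bp in DMSO in NUP98-HOXA9, 1067 bp after VTP50469 and 1702 bp in DMSO in NUP98-HOXD13, and 1549 bp after VTP50469 and 844 bp in DMSO in NUP98-JARID1A. In NUP98-NSD1 it had none after VTP50469 and 292 bp in DMSO, in a region that lay inside the gene. In NUP98-HOXA9 the treated list had 1 region where DMSO had 2, and in NUP98-HOXD13 the treated list had 2 where DMSO had 1, so a gap was closed in one line and opened in the other.

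Id1 (gene 15901, chr2:152736251-152737410), an inhibitor of E proteins, had 3 MLL1 regions in each list of 3 lines, 1 of them over the annotated start coordinate. Its covered length was 1063 bp after VTP50469 and 1721 bp in DMSO in NUP98-HOXA9, 1100 bp after VTP50469 and 1149 bp in DMSO in NUP98-HOXD13, and 2034 bp after VTP50469 and 2056 bp in DMSO in NUP98-JARID1A. Its length was 95.7% of the DMSO value in NUP98-HOXD13 and 98.9% in NUP98-JARID1A, where it was 1470 bp after VTP50469 and 2056 bp in DMSO with lists of equal length. In NUP98-NSD1 it had none after VTP50469 and 288 bp in DMSO.

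Id2 (gene 15902, chr12:25093799-25096092, minus strand), the inhibitor of E proteins that dendritic cells need, had 1 MLL1 region over its start. It was 588 bp after VTP50469 and 896 bp in DMSO in NUP98-HOXA9, 410 bp after VTP50469 and 768 bp in DMSO in NUP98-HOXD13, and 1002 bp after VTP50469 and 332 bp in DMSO in NUP98-JARID1A. The last is 3.02 times the DMSO length, the largest ratio among the genes covered in both lists. Id2 had no region in NUP98-NSD1.

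**Figure D4:**
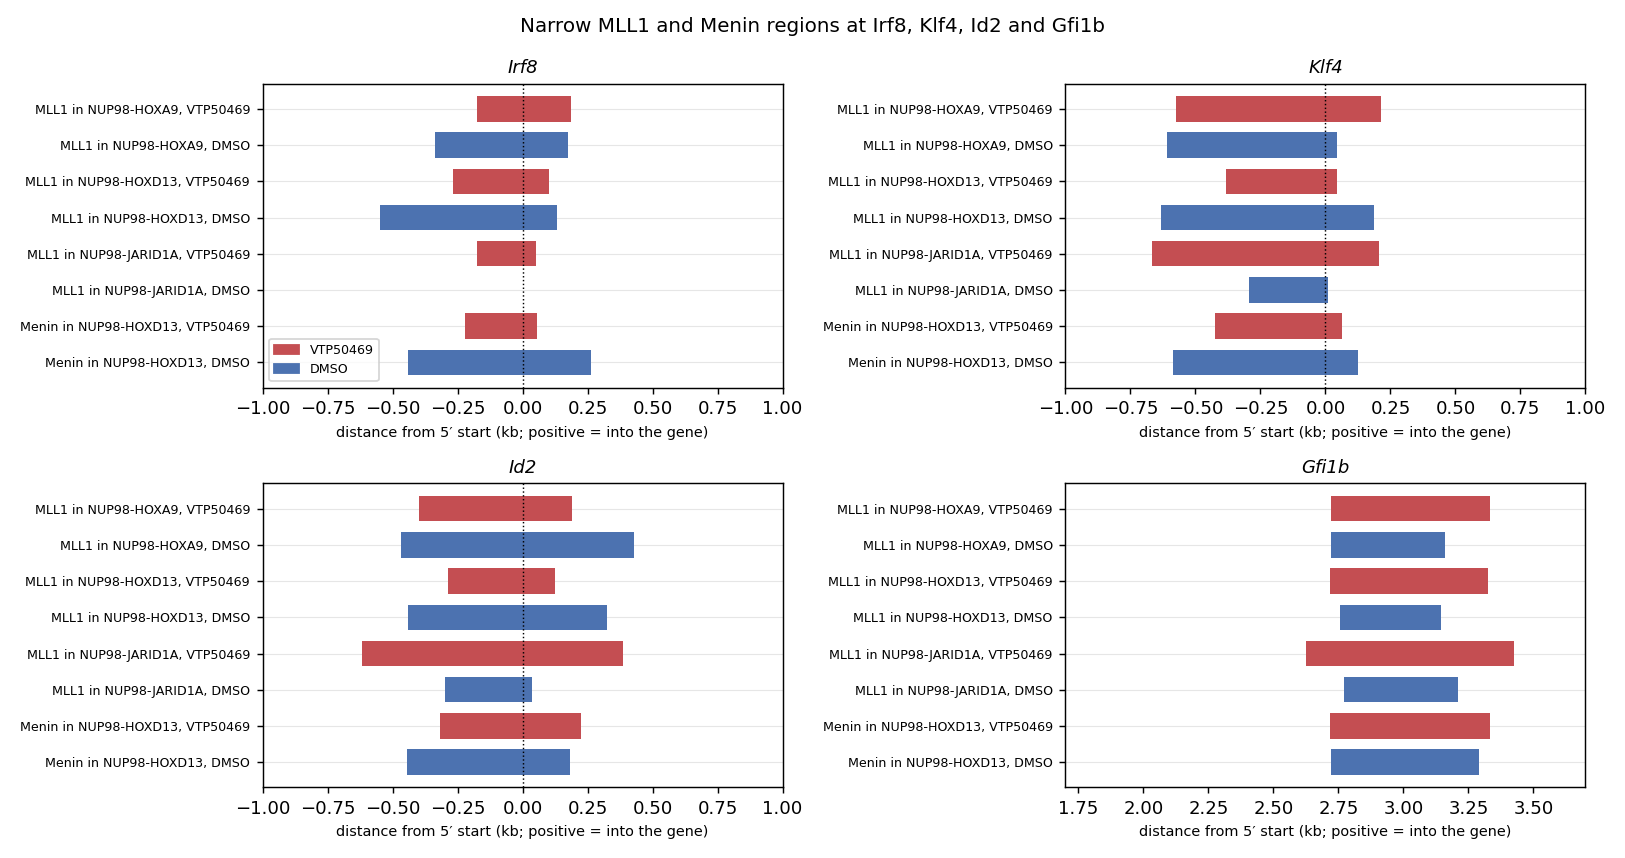
MLL1 regions in 3 lines and Menin regions in NUP98-HOXD13 at Irf8, Klf4, Id2 and Gfi1b, by distance in kb from the 5′ start, with VTP50469 above DMSO in each pair. The regions of Irf8, Klf4 and Id2 lie over the start at 0, and those of Gfi1b begin 2.63 to 2.77 kb inside the gene.

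Both lists of a pair were also cut to the same number of regions, keeping those with the highest −log10 p-value. The lengths in NUP98-JARID1A then became 4476 bp after VTP50469 and 5183 bp in DMSO at Gfi1. At Zeb2 they became 9932 bp after VTP50469 and 10995 bp in DMSO, and at Id1 1470 bp after VTP50469 and 2056 bp in DMSO. The 3 longer genes of that line, Irf8, Klf4 and Id2, kept their values, while the share of all genes that were longer was then 20.0%. In NUP98-NSD1, cutting to equal length left Egr1 and Id1 without a region in either list. Gfi1 and Zeb2, the 2 genes still covered in DMSO, were both shorter, in place of 4, against 86.8% of all genes.

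In DMSO of NUP98-HOXD13, Menin covered most of the MLL1 length at 6 of the genes and a small part of it at Gfi1 and Zeb2. In this line, 7 of the 8 genes had a Menin region after VTP50469 and 8 in DMSO, against 50.3% of all genes after VTP50469 and 53.4% in DMSO. Of the 8, 2 were shorter, Irf8 and Zeb2, against 13.5% of all genes, and none was longer, against 2.22%. Irf8 had 277 bp after VTP50469 and 705 bp in DMSO. Zeb2 had no Menin region after VTP50469, against 1234 bp in 4 regions in DMSO. The other lengths were 553 bp after VTP50469 and 875 bp in DMSO at Gfi1, 616 bp after VTP50469 and 569 bp in DMSO at Gfi1b, 489 bp after VTP50469 and 712 bp in DMSO at Klf4, 846 bp after VTP50469 and 1418 bp in DMSO at Egr1, 742 bp after VTP50469 and 1325 bp in DMSO at Id1, and 541 bp after VTP50469 and 628 bp in DMSO at Id2. Gfi1b alone of the 8 had a longer Menin length after treatment, by 47 bp. Without the flanks Gfi1 and Egr1 were shorter too, against 19.2% of all genes, Gfi1 with no Menin region after VTP50469 and 249 bp in DMSO.

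In DMSO of NUP98-HOXD13, Menin regions shared 875 bp with MLL1 at Gfi1, which is all of the Menin length and 23.2% of the MLL1 length. At Zeb2 they shared 856 bp, which is 69.4% of the Menin length and 22.8% of the MLL1 length. At the other 6 genes, 81.4% to 100% of the MLL1 length was shared. After VTP50469 the MLL1 region that remained at Gfi1, of 379 bp, lay wholly within the Menin region of 553 bp there.

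In NUP98-HOXA9, 0 of the 8 genes had a Menin region after VTP50469 and 3 in DMSO, against 1.32% of all genes after VTP50469 and 34.6% in DMSO. All 3 were thus shorter, as were 98.7% of all genes, and none was longer, against 0.699%. Gfi1 had none after VTP50469 and 709 bp in DMSO, Gfi1b none after VTP50469 and 433 bp in DMSO, and Id1 none after VTP50469 and 243 bp in DMSO. The Id1 region lay past the annotated end of the gene, and 243 of its 362 bp fell inside the window. Without the flanks Id1 had no Menin region in either list. The Gfi1b site stood above 97.4% of its DMSO list by fold, and it was the single one of the 3 that remained in DMSO when both lists were cut to 403 regions. MLL1 stayed called at all 8 genes of this line after VTP50469, at 72 h, where Menin was called at none at 96 h, and the times differ.

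H3K4me3, the mark that MLL1 and related enzymes deposit, was present in NUP98-HOXA9 at 4 of the 8 genes after VTP50469 and 4 in DMSO, against 43.8% of all genes after VTP50469 and 42.4% in DMSO. These were Gfi1, Zeb2, Id1 and Id2, while Gfi1b, Irf8, Klf4 and Egr1 had no H3K4me3 region in either list. None of the 4 was shorter, against 5.68% of all genes, and 1 of 4, Id2, was longer, against 10.7%. Gfi1 had 4785 bp after VTP50469 and 5224 bp in DMSO, Zeb2 2919 bp after VTP50469 and 2097 bp in DMSO, Id1 2496 bp after VTP50469 and 2430 bp in DMSO, and Id2 1278 bp after VTP50469 and 593 bp in DMSO. The genes whose MLL1 length was shorter in this line thus had total H3K4me3 lengths at 91.6% (Gfi1) and 139% (Zeb2) of DMSO. At Zeb2, the region over the innermost start was 2010 bp after VTP50469 and 1062 bp in DMSO, and a region of 317 bp was new. A region of 376 bp beside the outermost start was called in DMSO alone. At Gfi1, the domain over both starts was 4258 bp after VTP50469 and 4062 bp in DMSO. A second region farther inside Gfi1 was 527 bp after VTP50469 and 1162 bp in DMSO. Without the flanks Id2 had 794 bp of H3K4me3 after VTP50469 and 593 bp in DMSO and was not called longer, against 10.9% of all genes.

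At Gfi1, MLL1 covered 2218 of the 4785 bp of H3K4me3 after VTP50469 (46.4%) and 3921 of the 5224 bp in DMSO (75.1%). At Zeb2 it covered none of the 2919 bp after VTP50469 and 1438 of the 2097 bp in DMSO (68.6%). At Id1 the shared length was 209 bp after VTP50469 and 576 bp in DMSO, and at Id2 it was 588 bp after VTP50469 and 373 bp in DMSO. MLL1 was mapped at 72 h and H3K4me3 at 96 h in this line, so the lists do not show both at the same time.

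**Figure D5:**
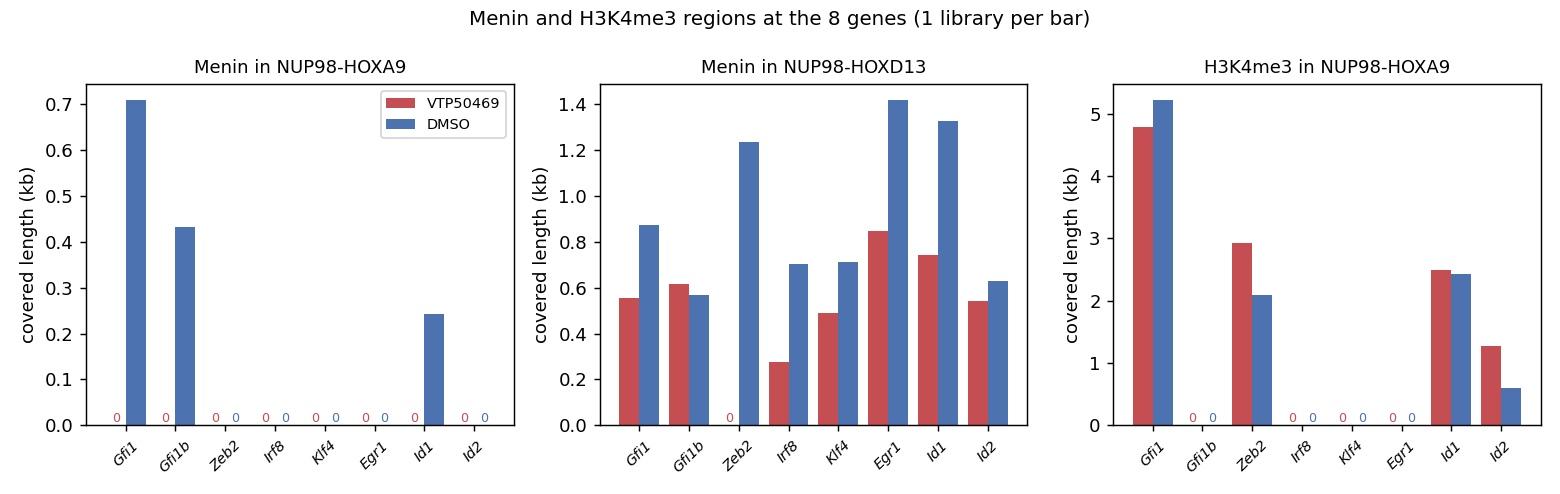
Covered length in kb of Menin regions (NUP98-HOXA9 and NUP98-HOXD13) and H3K4me3 regions (NUP98-HOXA9) at the 8 genes, with VTP50469 left of DMSO, 1 library per bar and 0 where no region was called. Menin in NUP98-HOXA9 has no VTP50469 bar at any gene, and H3K4me3 bars are present at Gfi1, Zeb2, Id1 and Id2 in both conditions.

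Other genes of the same pathways were read in the same way, and their counts stand beside the shares of all genes that were shorter for MLL1 (NUP98-HOXA9 12.8%, NUP98-HOXD13 30.4%, NUP98-JARID1A 2.51%, NUP98-NSD1 94.1%) or longer in NUP98-JARID1A (32.7%). No list was tested against these shares. Of 22 family relatives (other Irf, Klf, Egr, Zeb and Id genes), 2 of 19 covered in DMSO had shorter MLL1 length in NUP98-HOXA9, 8 of 20 in NUP98-HOXD13, 0 of 16 in NUP98-JARID1A and 11 of 12 in NUP98-NSD1. Irf2, a relative of Irf8, had 4176 bp after VTP50469 and 8222 bp in DMSO in NUP98-HOXA9, and 1800 bp after VTP50469 and 5780 bp in DMSO in NUP98-HOXD13. Zeb1, the paralogue of Zeb2, had 329 bp after VTP50469 and 1399 bp in DMSO in NUP98-HOXA9, and 621 bp after VTP50469 and 2882 bp in DMSO in NUP98-HOXD13. In NUP98-JARID1A, 9 of 20 covered relatives were longer, against 32.7% of all genes, among them Klf7 with 3856 bp after VTP50469 and 1673 bp in DMSO and Klf2 with 2753 bp after VTP50469 and 948 bp in DMSO.

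Of the 15 partners and corepressors, 2 of 14 covered genes were shorter for MLL1 in NUP98-HOXA9, 8 of 14 in NUP98-HOXD13, 0 of 14 in NUP98-JARID1A and 10 of 10 in NUP98-NSD1. Longer in NUP98-JARID1A were 4 of 14, against 32.7% of all genes. Tcf12, an E protein that Id proteins bind, had 6166 bp after VTP50469 and 18541 bp in DMSO in NUP98-HOXA9, and 641 bp after VTP50469 and 3881 bp in DMSO in NUP98-HOXD13. Tcf4, another E protein, had 809 bp after VTP50469 and 4215 bp in DMSO in NUP98-HOXD13. Rcor1, the CoREST subunit that works with Gfi1, had 1614 bp after VTP50469 and 3497 bp in DMSO in NUP98-HOXA9. Spi1, the partner of Irf8 also known as PU.1, had 555 bp after VTP50469 and 1979 bp in DMSO in NUP98-HOXD13 and 5593 bp after VTP50469 and 1514 bp in DMSO in NUP98-JARID1A, so its MLL1 length differed in opposite directions in these lines.

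Among 16 other regulators of myeloid fate, 4 of 14 covered genes were shorter for MLL1 in NUP98-HOXA9, 9 of 13 in NUP98-HOXD13, 0 of 14 in NUP98-JARID1A and 9 of 9 in NUP98-NSD1. Myb, a progenitor factor, had 2094 bp after VTP50469 and 5789 bp in DMSO in NUP98-HOXA9, and none after VTP50469 and 3476 bp in DMSO in NUP98-NSD1. In NUP98-JARID1A, 6 of 16 were longer, against the same 32.7%, among them Cebpe, a factor of late granulocytes, with 2788 bp after VTP50469 and 731 bp in DMSO and Rara with 6425 bp after VTP50469 and 2347 bp in DMSO. Of 12 monocyte and dendritic cell genes, 7 of 10 covered after VTP50469 were longer in NUP98-JARID1A, for example Lgals3 with 1186 bp after VTP50469 and 253 bp in DMSO, and of 12 neutrophil genes 7 of 10 were longer, both against 32.7% of all genes. The neutrophil genes Mpo, which codes for a peroxidase, and Elane, which codes for an elastase, were without a region there after VTP50469, against 1370 bp in DMSO at Mpo and 461 bp in DMSO at Elane. In NUP98-HOXA9, 2 of 9 covered neutrophil genes and 2 of 8 covered monocyte and dendritic cell genes were shorter, against 12.8% of all genes. In that line 2 neutrophil genes without a region in DMSO were longer, Mpo with 361 bp and Fcnb with 291 bp after VTP50469, against 6.98% of all genes. In NUP98-HOXD13, 2 of 9 covered neutrophil genes and 3 of 8 covered monocyte and dendritic cell genes were shorter, against 30.4%. Of 10 erythroid and megakaryocyte genes, 1 of 4 covered after VTP50469 was longer in NUP98-JARID1A, against 32.7% of all genes. Shorter were 1 of 4 covered genes in NUP98-HOXA9 and 2 of 5 in NUP98-HOXD13. Tal1 was among the shorter genes in both, with 532 bp after VTP50469 and 2945 bp in DMSO in NUP98-HOXA9 and 593 bp after VTP50469 and 3291 bp in DMSO in NUP98-HOXD13.

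The pattern over all 14 lists was compared between each of the 8 genes and every other gene by the sum of the smaller lengths divided by the sum of the larger, which is 1 for equal lengths in every list. Gfi1 was most like Rb1 (0.75) and Myb (0.74), and Zeb2 was most like Tsc22d2 (0.75) and Smad7 (0.75), against medians over all genes of 0.074 and 0.064. Tsc22d2 had 2053 bp of MLL1 after VTP50469 and 4300 bp in DMSO in NUP98-HOXA9, and 7372 bp after VTP50469 and 9353 bp in DMSO in NUP98-JARID1A. Irf8 was most like Lca5 (0.83) and Ly86 (0.79), Klf4 like Cep41 (0.89), and Egr1 like the histone genes H2bc11 (0.89) and H4c9 (0.86). Gfi1b was most like Scaper (0.91) and Tuft1 (0.90), Id1 like Inpp5b (0.86) and Cnppd1 (0.86), and Id2 like Nob1 (0.84) and Tmem9b (0.83). For the genes other than Gfi1 and Zeb2, the medians over all genes were higher, from 0.16 (Id1) to 0.26 (Id2). The genes named were picked as the most like, so they stand above the median by choice. The 14 lists share lines and antibodies, so this likeness is a description.

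Region by region, 12 of the 19 MLL1 regions in the 8 windows in DMSO shared at least 1 bp with a treated region in NUP98-HOXA9, 10 of 15 in NUP98-HOXD13, 10 of 12 in NUP98-JARID1A and 0 of 5 in NUP98-NSD1. Over all regions in DMSO, the share that had no base in common with a treated region was 21.5% for NUP98-HOXA9, 32.7% for NUP98-HOXD13, 8.62% for NUP98-JARID1A and 88.8% for NUP98-NSD1. Zeb2 accounted for all 7 regions lost in NUP98-HOXA9 and all 5 lost in NUP98-HOXD13. Regions outside the windows, up to 100 kb away, were also read and are not assigned to a gene. Upstream of Irf8, MLL1 sites at 67.8 and 49.9 kb from its start were called in NUP98-HOXA9 after VTP50469 and at 67.7 and 49.9 kb in DMSO, and both were also kept in NUP98-HOXD13 and NUP98-JARID1A. The farther of these sites was 804 bp wide after VTP50469 and 1163 bp in DMSO in NUP98-HOXA9, 990 bp after VTP50469 and 911 bp in DMSO in NUP98-HOXD13, and 1047 bp after VTP50469 and 1095 bp in DMSO in NUP98-JARID1A. In NUP98-JARID1A, both upstream sites were thus called in DMSO, where the start of Irf8 had no region. Of all MLL1 regions in DMSO in this stretch around Irf8, 0 of 4 were lost in NUP98-HOXA9 and 2 of 4 in NUP98-HOXD13. In NUP98-JARID1A 0 of 2 were lost, and in NUP98-NSD1 1 of 1. Menin regions lost there were 2 of 2 in NUP98-HOXA9 and 1 of 4 in NUP98-HOXD13, against 95.9% and 20.0% of all Menin regions.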

How the data were processed

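Per the labels' protocols, crosslinked chromatin was immunoprecipitated with antibodies to MLL1, Menin or H3K4me3 and sequenced from both ends. Of the 24 libraries, 14 have peak lists and the other 10 are inputs. For NUP98-NSD1, and for NUP98-HOXA9 at 96 h, the inputs are from VTP50469 cells alone. For NUP98-HOXA9 at 72 h, the input is from DMSO cells alone. In these pairs, either the DMSO or the VTP50469 list thus has no input of its own condition. The submitters' processing notes name MACS2, bedtools, SAMtools, Picard 2.9.4, STAR 2.7.5a and bcl2fastq 2.20.0.422, with genome build mm10. Not given in the sources used here are their roles and settings and the input that served each list. Each deposited list belongs to 1 library, so peaks were called per sample. A deposited row holds an interval, the authors' fold enrichment as a ratio, and the −log10 p-value and q-value. The dose label of NUP98-NSD1 is 200 nM, although the treatment protocol names 2 µM.

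Rows of a list were merged (none overlapped), and covered lengths were computed with Python 3.11.15, numpy 2.4.6 and pandas 2.3.3, checked on simulated data. Gene spans came from the RefSeq table of GRCm38.p6, and strands and starts from its promoter table. With 1 library per condition there are no replicates and no p-values. Alternatives were a −log10 q of at least 5, lists of equal length, no flank, a 10 kb flank, a 1.5-fold limit and a 50% overlap. Named were the 8 genes, at most 4 genes per gene list and pair with the largest change in covered length, and the 2 genes most like each of the 8, of which 1 is not reported here. The 8 genes and the gene lists were chosen with earlier results of these data known.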

Additional observations from a re-analysis of the deposited data

Results flagged for a closer look

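At 4 genes the MLL1 length differed between VTP50469 and DMSO in opposite directions in different lines, and none of these differences between lines was tested. Irf8 was longer by 225 bp after VTP50469 in NUP98-JARID1A, and differed in the opposite direction in NUP98-HOXA9 and NUP98-HOXD13, short of the limit for a call. Without the 2 kb flanks, the difference at Irf8 in NUP98-HOXA9 was 10 bp, longer after VTP50469. Klf4 differed by 571 bp in NUP98-JARID1A, longer after VTP50469, and in the opposite direction in NUP98-HOXD13, short of the limit. Id2 differed by 670 bp in NUP98-JARID1A, longer after VTP50469, and in the opposite direction in NUP98-HOXA9 and NUP98-HOXD13, short of the limit. Egr1 differed by -292 bp in NUP98-NSD1 (VTP50469 minus DMSO) and by -635 bp in NUP98-HOXD13, the latter short of the limit. It differed in the opposite direction in NUP98-HOXA9 and NUP98-JARID1A, also short of the limit.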

How the results depend on the processing

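No paired analysis was possible because each condition had 1 library and no test was made. Of 43 covered lengths, the class (shorter, longer or in between) was as reported under a −log10 q of at least 5 in 43, with lists of equal length in 39, with no flank in 31 and with a 10 kb flank in 41. The sign of the difference turned in 1 (Gfi1 in NUP98-JARID1A, 206 bp), 0, 4 and 3 of them under these settings. With no flank these were MLL1 at Irf8 in NUP98-HOXA9 (10 bp), Id1 in NUP98-HOXD13 (20 bp) and Gfi1 in NUP98-JARID1A (209 bp), and Menin at Id2 in NUP98-HOXD13 (41 bp). With a 10 kb flank they were Id1 in NUP98-HOXA9 (207 bp), NUP98-JARID1A (788 bp) and NUP98-NSD1, which was called shorter and turned to 24 bp more after VTP50469 (312 bp, against 288 bp in DMSO). A 1.5-fold limit gave 4 of the 8 genes shorter for MLL1 in NUP98-HOXA9 (2876 of all genes shorter, 1311 longer), 6 shorter and 1 longer (Gfi1b) in NUP98-HOXD13 (5780 and 275 of all genes), 5 longer in NUP98-JARID1A (698 of all genes shorter, and 5975, or 48.1%, longer), 5 shorter for Menin in NUP98-HOXD13 (2911 and 374 of all genes), and 868 of all genes shorter and 1679 longer for H3K4me3. Without a flank, 1 gene (Klf4) was longer in NUP98-HOXA9 (8.69% of all genes), and 5 were shorter for MLL1 (38.6%) and 4 for Menin (19.2%) in NUP98-HOXD13. Then 0 were longer for H3K4me3 (10.9%), and 477 of all genes (4.77%) were shorter in NUP98-JARID1A. With lists of equal length, all genes shorter and longer for MLL1 numbered 2334 (21.9%) and 527 (5.03%) in NUP98-HOXD13, and 1179 (11.3%) and 2083 (20.0%) in NUP98-JARID1A. They numbered 830 (86.8%) and 636 (64.5%) in NUP98-NSD1, where the 2 of the 8 covered in DMSO were both shorter. For Menin they were 282 (81.7%) and 141 (49.3%) in NUP98-HOXA9, where Gfi1b, the 1 of the 8 covered in DMSO, was shorter. In NUP98-HOXD13, 396 (3.64%) were longer for Menin. A −log10 q of at least 5 left 1 of all genes longer for Menin in NUP98-HOXA9. With an overlap of at least 50%, 2 of 7 H3K4me3 regions at the 8 genes were lost, against 11.6% of all such regions. Causes of these shifts were not tested. Read depth is unknown, and regions below the limit of a list are not seen.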
